A study of Mus musculus with 27 samples.

Results

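The 32 genes described here belong to glycolysis (17 genes) and to the transcriptional response to low oxygen (15 genes). They were chosen by name from textbook pathway membership and from earlier results of these data, out of 48440 gene identifiers in the bulk count files, and all 32 were among the 12939 genes that passed the filter on low counts. The animals came in 2 genotypes. KO animals carried floxed Ogt together with Lyz2-cre, so that the Cre recombinase is made from the Lyz2 promoter, which is active in macrophages, monocytes and neutrophils. WT animals carried the same floxed Ogt without Cre. Both bore MC38 tumours, grown from a mouse colon carcinoma line. The animals' age and sex, the sort behind the bulk macrophage samples and the number of animals pooled per sample were not given in the sources used here. Bulk RNA was sequenced from tumour associated macrophages of 3 KO and 3 WT samples, and single cell RNA from CD45-labelled tumour cells as 1 count matrix per genotype. The labels name 2 single cell samples per genotype, and what the matrix holds of each could not be told from the files.

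Glycolysis splits glucose into pyruvate in the cytosol. Cells with little oxygen, and macrophages after many kinds of activation, reduce the pyruvate to lactate and export it. The transcription factor HIF1A is destroyed when oxygen is present, because prolyl hydroxylases of the Egln family mark it for degradation, and in low oxygen it accumulates and binds promoters at a core of RCGTG letters in genes for glucose uptake, glycolysis, angiogenesis and mitochondrial turnover. Ogt encodes the only nuclear and cytosolic enzyme that puts GlcNAc on proteins, and its sugar donor is made from an early intermediate of glycolysis.

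The bulk libraries held between 11468556 and 32406170 counts in KO and between 7032540 and 12439582 counts in WT. Ogt itself averaged 34.7 ± 3.86 CPM (counts scaled to library size with TMM factors) in KO and 56.3 ± 6.24 CPM in WT (SD, n = 3 each), so transcripts of the targeted gene were lower in KO by edgeR's quasi-likelihood test (log2 fold change -0.72, adjusted p = 2.98e-09) and not absent. The counts are summed over the whole gene and cannot show which exons remained. Lyz2, the locus that carries the Cre, averaged 84.0 ± 1.52 CPM in KO and 3882 ± 53.8 CPM in WT. Egr2, the factor profiled by CUT&Tag in the same study, averaged 143 ± 10.6 CPM in KO and 265 ± 9.54 CPM in WT. The macrophage complement genes C1qa, C1qb and C1qc stood at 1868, 2257 and 1724 CPM in KO and at 1920, 2420 and 1832 CPM in WT. Of 13 macrophage markers 6 were called higher and 6 lower in KO at an adjusted p below 0.05, against 18.8% and 18.9% of all tested genes. Their sum was 11334.5 to 11538.5 CPM in KO and 12142.4 to 12418.6 CPM in WT. C1qb and C1qc were among those called lower, and C1qa was not called. Among those called higher, Csf1r stood at 1297 CPM in KO and 961 CPM in WT, Adgre1 at 251 and 183 CPM, and Cd68 at 675 and 527 CPM. These risers were picked from the list outside the rule by level. The log2 fold changes of the list ran from -0.84 to 0.46. Both genotypes thus had high levels of macrophage genes. The labels do not say that the samples of a genotype came from separate animals, so the p-values below measure only the spread between these samples, which may be technical.

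In the bulk macrophage samples most of the 32 genes were lower in KO. At an adjusted p below 0.05 over all tested genes, 20 of the 32 fell and 2 rose, against a background in which 37.7% of all tested genes were called, 18.9% as falls and 18.8% as rises. Among genes with a mean of at least 50 CPM, where small changes are easier to call, 31.8% fell and 27.7% rose, against 18 and 2 of the 27 listed genes at that level. The median log2 fold change was -0.21 over the 32 genes and -0.0013 over all tested genes. All 3 KO values lay below all 3 WT values for 21 of the 32 genes, against 23.3% of all tested genes. The falls were modest in size. The summed level of the 17 glycolysis genes was 11842 ± 77.1 CPM in KO and 13449 ± 188 CPM in WT, a ratio of 0.880, and that of the 15 hypoxia genes was 1985 ± 14.5 CPM in KO and 2391 ± 40.9 CPM in WT, a ratio of 0.830. In a bulk sample fewer cells of a type and less RNA per cell cannot be told apart.

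**Figure D1:**
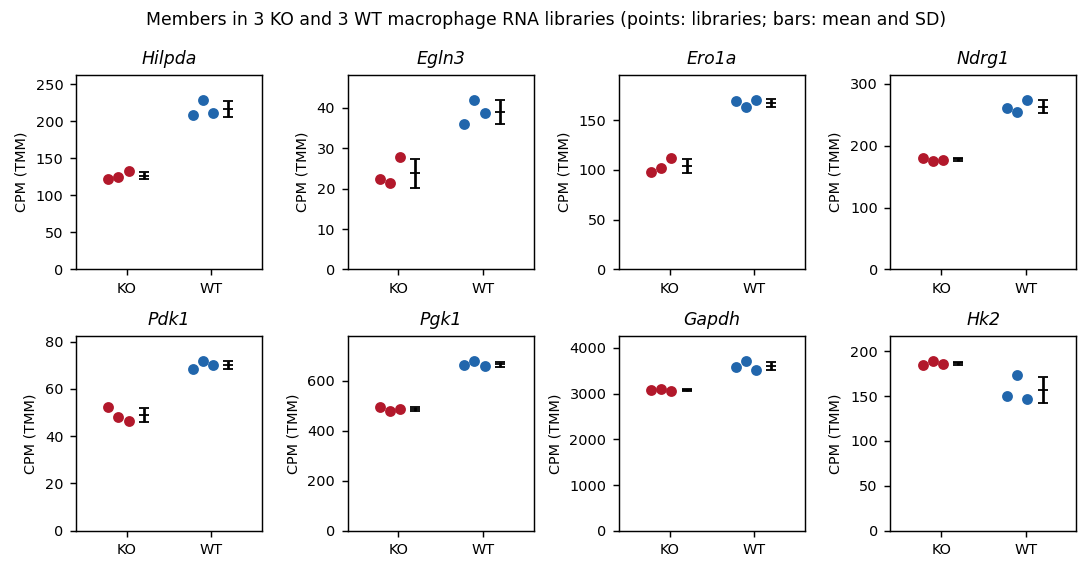
CPM (vertical axes, each from 0) of 8 listed genes in the 3 KO and 3 WT bulk libraries, with a point per library and a bar for the mean and SD. The KO points lie below the WT points for Hilpda, Egln3, Ero1a, Ndrg1, Pdk1, Pgk1 and Gapdh, and above them for Hk2.

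Glucose entry showed both directions. Slc2a1, the main glucose transporter of most proliferating and activated cells, had 313, 309 and 310 CPM in the 3 KO samples, against 401, 398 and 419 CPM in the 3 WT samples, with no overlap. It fell by 0.38 on the log2 scale (SE 0.0322, adjusted p = 1.28e-16, edgeR quasi-likelihood test with Benjamini-Hochberg adjustment, as for all bulk tests below). Hk2, the inducible hexokinase that traps glucose in the cell, had 185, 189 and 185 CPM in KO, against 150, 174 and 146 CPM in WT. It was the listed gene with the clearest rise, at a log2 fold change of 0.25 (SE 0.0488, adjusted p = 2.14e-05). The other widely expressed hexokinase, Hk1, had 96.7, 104 and 102 CPM in KO, against 94.7, 98.8 and 84.2 CPM in WT, and did not pass the test (adjusted p = 0.148).

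The committing step divided in the same way. Pfkl, a subunit of phosphofructokinase, fell by 0.25 on the log2 scale (adjusted p = 1.21e-05), while the subunit Pfkp had 416, 400 and 385 CPM in KO, against 405, 385 and 418 CPM in WT (adjusted p = 0.908). The bifunctional enzymes Pfkfb3 and Pfkfb4 set the level of an activator of phosphofructokinase. Pfkfb3 had 233, 254 and 238 CPM in KO, against 211, 225 and 230 CPM in WT, and rose by a log2 fold change of 0.13 (adjusted p = 0.0116). Pfkfb4 had 64.9, 56.8 and 62.1 CPM in KO, against 72.8, 70.3 and 68.7 CPM in WT, and fell by 0.20 (adjusted p = 0.0308). Both calls were lost without single libraries. Without the second KO library the adjusted p was 0.105 for Pfkfb3 and 0.17 for Pfkfb4, without the first WT library it was 0.147 and 0.125, and without the third KO library it was 0.0608 for Pfkfb4.

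From aldolase to lactate export, each listed gene but the pyruvate kinase Pkm fell, as did the isomerase Gpi1 above them. Phosphoglycerate kinase Pgk1, the first enzyme of the pathway to yield ATP, moved most, with 493, 477 and 485 CPM in KO, against 661, 677 and 657 CPM in WT (log2 fold change -0.45, SE 0.0275, adjusted p = 2.8e-23). Gpi1 fell by 0.31, the aldolase Aldoa by 0.19, the triosephosphate isomerase Tpi1 by 0.14, Gapdh by 0.23 and the enolase Eno1 by 0.23, with adjusted p-values between 2.35e-19 and 1.76e-05. Gapdh, the most abundant of the 32 genes per length, had 3077, 3097 and 3052 CPM in KO, against 3580, 3705 and 3521 CPM in WT. The gene is often used as a constant control, and here its KO and WT values did not overlap. The mutase Pgam1 fell by 0.12 (adjusted p = 0.0103), a call that was lost without the first KO library (adjusted p = 0.0694) or the second (adjusted p = 0.0672). Pkm, which makes pyruvate, had 1924, 1955 and 1922 CPM in KO, against 1926, 1942 and 1886 CPM in WT (log2 fold change 0.01, SE 0.0189, adjusted p = 0.67).

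Both listed lactate genes were lower. Ldha, the lactate dehydrogenase subunit that favours lactate, had 1060, 1063 and 1038 CPM in KO, against 1260, 1278 and 1284 CPM in WT, and fell by 0.27 on the log2 scale (adjusted p = 1.56e-17). Slc16a3, which exports lactate, had 222, 226 and 209 CPM in KO, against 266, 267 and 278 CPM in WT, and fell by 0.30 (adjusted p = 1.38e-09). The genomic counts of Gapdh, Pgk1, Ldha, Eno1, Pgam1, Aldoa and Mif are less certain than those of the other genes, because near-identical copies elsewhere in the mouse genome can take or drop reads.

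The hypoxia genes held the deepest falls. Hilpda, a lipid droplet protein that slows fat breakdown, had 123, 125 and 133 CPM in KO, against 209, 229 and 211 CPM in WT, the largest called change of the 32 (log2 fold change -0.77, SE 0.0474, adjusted p = 4.82e-23). Egln3, a HIF prolyl hydroxylase that is itself induced by low oxygen, had 22.3, 21.3 and 27.9 CPM in KO, against 36.1, 42.0 and 38.6 CPM in WT (-0.71, SE 0.113, adjusted p = 3.34e-07). Ero1a, an oxidase of the endoplasmic reticulum that supports disulfide formation, had 98.1, 102 and 112 CPM in KO, against 169, 163 and 170 CPM in WT (-0.69, SE 0.0534, adjusted p = 2.89e-18). In all 3 genes the lowest WT library was well above the highest KO library. Their promoters, and that of Hk2 as the gene with the clearest rise, are shown from RefSeq on GRCm38.p6, read on the gene's strand from 250 bases before to 50 bases after the start. Hilpda has 2 overlapping windows, and the first holds the start used in the count files. Capitals mark ACGTG and GCGTG, the letters of the HIF core, on either strand.
Hilpda, chr6:29272238-29272537, plus strand: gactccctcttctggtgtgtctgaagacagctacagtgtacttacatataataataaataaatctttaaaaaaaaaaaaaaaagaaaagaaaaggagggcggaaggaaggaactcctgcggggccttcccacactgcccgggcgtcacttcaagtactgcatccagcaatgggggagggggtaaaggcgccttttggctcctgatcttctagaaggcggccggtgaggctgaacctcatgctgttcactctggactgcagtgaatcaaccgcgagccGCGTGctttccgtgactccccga
Hilpda, a further start, chr6:29272376-29272675, plus strand: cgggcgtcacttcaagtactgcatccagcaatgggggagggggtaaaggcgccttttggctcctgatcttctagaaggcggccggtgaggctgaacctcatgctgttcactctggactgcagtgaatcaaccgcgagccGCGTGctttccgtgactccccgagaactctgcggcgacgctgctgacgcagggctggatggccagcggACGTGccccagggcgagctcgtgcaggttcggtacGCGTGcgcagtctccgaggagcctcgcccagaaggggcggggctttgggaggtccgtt
Egln3, chr12:54203825-54204124, minus strand: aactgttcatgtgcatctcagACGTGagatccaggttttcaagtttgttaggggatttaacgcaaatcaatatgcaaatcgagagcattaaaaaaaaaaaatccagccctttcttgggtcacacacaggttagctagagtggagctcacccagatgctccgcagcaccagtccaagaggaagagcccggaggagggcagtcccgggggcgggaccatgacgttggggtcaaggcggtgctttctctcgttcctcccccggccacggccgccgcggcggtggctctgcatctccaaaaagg
Ero1a, chr14:45318523-45318822, minus strand: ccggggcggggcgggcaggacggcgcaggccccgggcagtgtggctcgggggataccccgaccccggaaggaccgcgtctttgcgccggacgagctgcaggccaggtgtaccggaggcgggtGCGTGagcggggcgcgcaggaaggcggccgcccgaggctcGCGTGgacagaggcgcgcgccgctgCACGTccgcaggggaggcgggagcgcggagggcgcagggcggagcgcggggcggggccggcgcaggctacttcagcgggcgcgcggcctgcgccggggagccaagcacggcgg
Hk2, chr6:82774405-82774704, minus strand: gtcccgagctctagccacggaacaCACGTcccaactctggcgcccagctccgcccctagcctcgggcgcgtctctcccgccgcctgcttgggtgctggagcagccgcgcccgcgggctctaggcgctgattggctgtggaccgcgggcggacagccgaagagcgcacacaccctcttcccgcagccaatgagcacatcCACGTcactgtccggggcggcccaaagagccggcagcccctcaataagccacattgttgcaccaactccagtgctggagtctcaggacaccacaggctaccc

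The rising gene carried the letters as well as the falling ones. Of the 31 listed genes with a promoter in the table, 22 (71.0%) held ACGTG in at least 1 promoter window, against 29.7% of the 9356 tested genes with a promoter there. GCGTG was held by 21 of the 31 (67.7%), against 55.7%, and GCGNGGGCG, the letters of the EGR family site, by 4 of the 31 (12.9%), against 12.1%. Counted by window, ACGTG was in 24 of 44 member windows (54.5%), against 25.7% of the windows of tested genes. Both strands were searched, the palindrome CACGTG counts on both strands, and GCGTG can overlap GCGNGGGCG. A match is a string of letters and not a measured binding site. The genes were chosen from textbook glycolysis and hypoxia pathways, so an excess of the HIF core can follow from that choice.

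The remaining hypoxia genes split between smaller falls and no call. Ndrg1, a stress-responsive gene with a strong hypoxia induction in many cell types, had 181, 176 and 178 CPM in KO, against 261, 254 and 274 CPM in WT (-0.56, SE 0.0408, adjusted p = 2.35e-19). Pdk1, the kinase that closes pyruvate dehydrogenase and so keeps pyruvate out of mitochondria, had 52.2, 48.2 and 46.4 CPM in KO, against 68.4, 71.7 and 70.0 CPM in WT (-0.51, adjusted p = 2.48e-07). Egln1, the main oxygen-sensing prolyl hydroxylase, fell by 0.40 (adjusted p = 2.56e-05). Vegfa, the angiogenic growth factor, had 573, 589 and 562 CPM in KO, against 653, 703 and 667 CPM in WT (-0.23, adjusted p = 1.88e-10). The mitophagy receptor Bnip3 fell by 0.36 (adjusted p = 0.00713), which became 0.0554 without the first WT library.

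Hif1a, the transcription factor of the response, had 264, 251 and 273 CPM in KO, against 246, 258 and 270 CPM in WT, so its transcript level overlapped between the genotypes (adjusted p = 0.584). The data hold no measure of HIF1A protein. The cytokine gene Mif had 344, 336 and 335 CPM in KO, against 356, 359 and 348 CPM in WT, which did not overlap and still missed the threshold (adjusted p = 0.101). The collagen prolyl hydroxylase subunit P4ha1, the histone demethylase Kdm3a and the ankyrin repeat gene Ankrd37 were not called, with adjusted p-values of 0.991, 0.893 and 0.605. P4ha2 had 6.96, 8.23 and 6.55 CPM in KO, against 5.30, 2.87 and 7.03 CPM in WT (log2 fold change 0.52, adjusted p = 0.0955), and without the third WT library it passed (0.77, adjusted p = 0.0235). The vasodilator peptide gene Adm was near the detection limit, at 1.20, 2.72 and 0.639 CPM in KO, against 0.497, 0.782 and 0.878 CPM in WT (adjusted p = 0.164).

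Levels per length put these genes in a steep order. In FPKM, which is CPM per kilobase of exon, Gapdh stood at 744 in KO and 872 in WT, Pkm at 744 in KO and 738 in WT, Mif at 610 in KO and 639 in WT, and Ldha at 318 in KO and 385 in WT. Hilpda and Vegfa led the hypoxia genes other than Mif, at 115 and 134 FPKM in KO and 196 and 157 FPKM in WT, and Adm was lowest at 0.938 FPKM in KO and 0.444 FPKM in WT.

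Genes of neighbouring pathways were called in both directions. The counts below stand beside 18.8% rises and 18.9% falls among all tested genes, and several are near those shares. Among 18 tested other glycolysis and lactate genes 4 rose and 6 fell, among them the myeloid hexokinase Hk3 at 324 CPM in KO and 187 CPM in WT and the aldolase Aldoc at 47.3 CPM in KO and 93.0 CPM in WT. Ldhb, the other main lactate dehydrogenase subunit, rose to 10.1 ± 1.65 CPM in KO, against 2.60 ± 1.10 CPM in WT (log2 fold change 2.01, adjusted p = 1.68e-09). The pentose phosphate pathway, which draws glucose-6-phosphate away from glycolysis, had 4 rises and 1 fall among 9 tested genes, with G6pdx at 138 CPM in KO and 106 CPM in WT. Of 12 genes for pyruvate entry into mitochondria 1 rose and 3 fell, and of 9 glycogen genes 3 rose and 4 fell, among them the glycogen synthase Gys1 (-0.66) and the phosphorylase Pygl (-0.39). Of 13 other HIF pathway components 1 rose and 3 fell. The riser was Epas1, the gene of the HIF alpha subunit HIF2A, at 18.6 ± 0.727 CPM in KO and 5.49 ± 0.737 CPM in WT (log2 fold change 1.75). Of 32 other genes known to respond to hypoxia 7 rose and 13 fell, with a median of -0.12, and the falls included the placental growth factor Pgf (-1.32), the histone demethylase Kdm4b (-0.77) and the chemokine receptor Cxcr4 (-0.43). The adjusted p-values of the genes named here were at most 6.67e-05, that of Pygl.

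Markers of other cells moved between the bulk genotypes as well. Among all tested genes 18.8% rose and 18.9% fell. Among those with a mean of at least 50 CPM 27.7% rose and 31.8% fell. Of 6 tested markers of migratory dendritic cells 6 fell, with a summed level of 234 to 235 CPM in KO and 600 to 616 CPM in WT, and Ccr7 stood at 82.9 CPM in KO and 213 CPM in WT. The 7 CD8 T cell markers all rose, with a sum of 184 to 197 CPM in KO and 86.4 to 92.3 CPM in WT. Of 10 neutrophil markers 7 fell and 1 rose, with a sum of 682 to 712 CPM in KO and 1034 to 1124 CPM in WT, of which Il1r2 made up 487 CPM in KO and 803 CPM in WT. The defining neutrophil genes S100a8 and S100a9, picked out after their values were seen, were near 0, at 0.456 and 0.866 CPM in KO and at 1.07 and 3.85 CPM in WT, against 11092 and 22031 CPM in the neutrophil-like single cells of the KO matrix. A list of 11 dissociation and immediate early genes had 9 falls and 1 rise, with a sum of 26959 to 27836 CPM in KO and 32290 to 32886 CPM in WT, and the Mmp12 and Mgl2 macrophage state list had 4 falls among 5 genes, with 1353 to 1412 CPM in KO and 2681 to 2716 CPM in WT. Dendritic cDC1 markers had 6 rises and 1 fall among 7, with a sum of 2074 to 2100 CPM in KO and 1537 to 1561 CPM in WT. Monocyte markers had 8 rises and 2 falls among 12, with a median log2 fold change of 0.57, while their sum was 2311 to 2320 CPM in KO and 2407 to 2456 CPM in WT. The mitochondrial share of counts was 1.26% to 1.31% in KO and 1.08% to 1.10% in WT. The part of these values in the falls of the glycolysis and hypoxia genes was not tested.

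For most of the listed genes called lower in bulk, the single cell matrices gave the opposite direction in macrophage-like cells. After filtering, 9714 KO cells and 9671 WT cells were kept, with a median of 5792 UMIs (unique molecules) in KO and 5565 in WT, and 23 kept barcodes occurred in both matrices. Clusters were computed without the 32 genes and the related pathway genes. Because there is 1 matrix per genotype there is no test, and the intervals below are exact Poisson 95% intervals that cover counting error only. In the 4 clusters named macrophage-like from their markers (1835 KO cells and 2116 WT cells), 25 of the 32 genes had a higher level in KO, against 61.6% of all genes with at least 20 UMIs. The KO interval lay above the WT interval for 21 of the 32, against 21% of all such genes, and below it for 2, against 9.37%. The median log2 ratio, computed after adding 5 CPM to both levels, was 0.27 over the 32 genes and 0.057 over all genes.

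**Figure D2:**
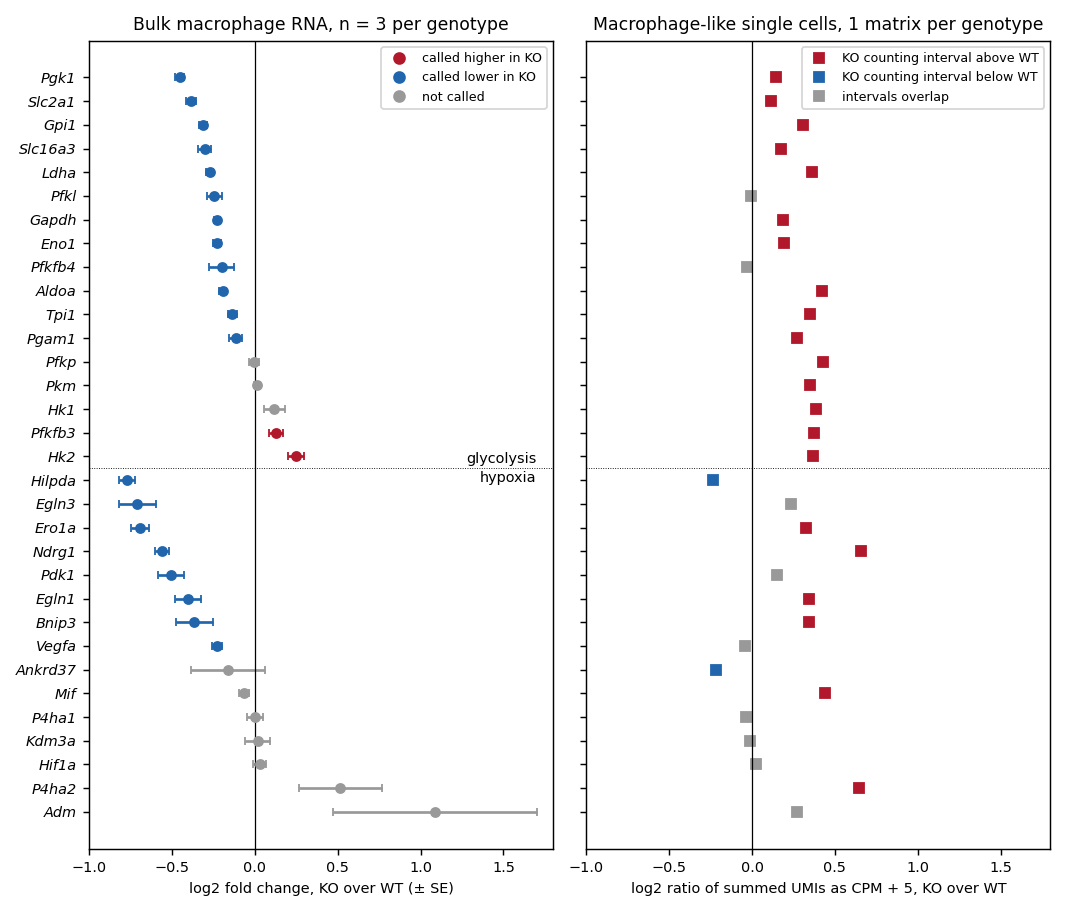
Left, log2 fold change (KO over WT, with its SE) of each of the 32 genes in bulk macrophage samples, coloured by the edgeR call; right, log2 ratio (KO over WT) of the same genes in macrophage-like single cells, coloured by whether the counting intervals are apart. Of the 20 genes called lower in bulk, 16 have a single cell ratio above 0.

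Glycolysis genes were the more uniform group. Of the 17 glycolysis genes 15 were higher in KO macrophage-like cells, against 61.6% of all genes. All 15 had the KO interval above, against 21% of all genes, while Pfkl and Pfkfb4 overlapped. Ldha had 627 CPM in KO (interval 615 to 639) and 487 CPM in WT (interval 476 to 498). Aldoa had 569 CPM in KO and 424 CPM in WT, a log2 ratio of 0.42, and Pkm, which had no bulk call, had 616 CPM in KO and 482 CPM in WT. Gapdh, the deepest of them with 31009 UMIs in KO and 27619 in WT, had 1917 CPM in KO and 1684 CPM in WT, a log2 ratio of 0.19. Hk2 and Pfkfb3, the risers in bulk, were higher here too, at 253 and 92.9 CPM in KO and at 195 and 70.6 CPM in WT.

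Hypoxia genes were more mixed. Of 15, 10 were higher, against 61.6% of all genes, so their count of higher genes was near that share. The KO interval lay above for 6, against 21% of all genes, and below for 2, against 9.37%. On the scale with 5 CPM added, Ndrg1 had the largest log2 ratio of the 32, with 2497 UMIs and 154 CPM in KO (interval 148 to 161), against 1573 UMIs and 95.9 CPM in WT (interval 91.2 to 101), a log2 ratio of 0.66, where bulk gave -0.56. P4ha2 followed with a log2 ratio of 0.65 from only 75 UMIs in KO and 19 in WT, and with 1 CPM added P4ha2 was ahead, at 1.385, of Ndrg1, at 0.68. With 5 CPM added, Mif, Bnip3, Egln1 and Ero1a came next with 0.44, 0.34, 0.34 and 0.33. Hilpda and Ankrd37 were lower in KO, at 415 and 54.7 CPM in KO and at 489 and 64.6 CPM in WT. Vegfa, at 317 CPM in KO and 326 CPM in WT, and Hif1a, at 359 CPM in KO and 353 CPM in WT, had overlapping intervals.

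**Figure D3:**
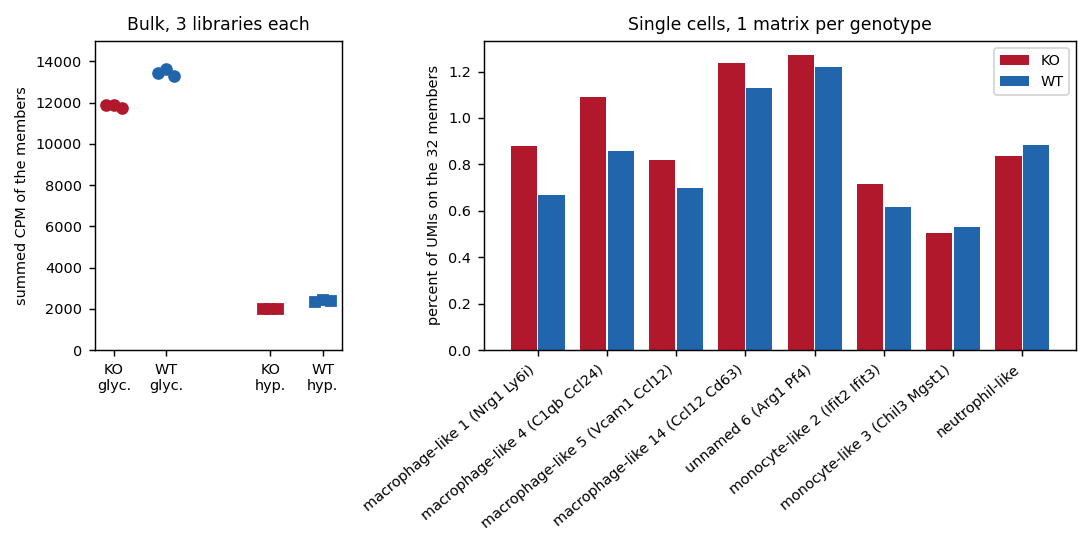
Left, summed CPM of the 17 glycolysis genes (glyc.) and of the 15 hypoxia genes (hyp.) in each bulk library; right, percent of all UMIs that fell on the 32 genes in each macrophage or monocyte cluster and in neutrophil-like cells, KO left of WT. Both bulk sums are lower in KO, while the KO bar is the higher one in each macrophage-like cluster.

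The genes were then set beside their own bulk calls, a comparison for which they were chosen with the opposite directions already known. Of the 20 genes called lower in bulk, 16 had a single cell ratio above 0 and 14 had separate intervals above, against 39.7% and 14.6% of the 2194 genes called lower in bulk and measured in macrophage-like cells, the 20 included. Hilpda was the only one of the 20 with the KO interval below in single cells. Among the 10 genes with no bulk call, 5 had the KO interval above, against 18.5% of the 6638 measured genes with no bulk call. The 2 genes called higher in bulk both had the KO interval above, against 47.2% of the 2254 measured genes called higher in bulk. Of those 2254 genes 82.1% had a single cell ratio above 0. Scale matters for these counts, since with TMM factors in place of summed UMIs 49.4% of all genes lay above 0, and 24 of the 32 listed genes still did, with a median of 0.19 against -0.0029 over all genes. Other lists moved in the same cells. All 11 dissociation and immediate early genes had the KO interval below, with a sum of 14858 CPM in KO and 22260 CPM in WT. Their sum was lower in KO in bulk too, where 9 of the 11 fell and 1, Fos, rose. The 6 cell cycle genes had a sum of 260 CPM in KO and 172 CPM in WT, and the Mmp12 and Mgl2 list 1642 CPM in KO and 996 CPM in WT, opposite to bulk. The 7 cDC1 markers had a sum of 1105 CPM in KO and 755 CPM in WT with a median log2 ratio of 0.53 and the 12 monocyte markers 1787 CPM in KO and 2456 CPM in WT. Their part in the ratios of the listed genes was not tested. In the list of other hypoxia-responsive genes 15 of 30 were higher, against 61.6% of all genes. Their median was 0.0004, against 0.057 over all genes. The KO interval lay above for 7, against 21% of all genes, and below for 7, against 9.37%. The sum of the list was 3764 CPM in KO and 4181 CPM in WT.

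The ratios were then read within each macrophage state. The largest cluster, led by Nrg1 and Ly6i (931 KO cells and 910 WT cells), had 26 of 31 measured genes higher with a median log2 ratio of 0.49, against 50.3% of all its genes. There Ndrg1 had 208 CPM in KO and 107 CPM in WT, Bnip3 103 CPM in KO and 51.7 CPM in WT, and Gapdh 1460 CPM in KO and 1062 CPM in WT. The cluster led by C1qb, Ccl24 and Mmp12 (490 KO cells and 928 WT cells) had 30 of 32 higher with a median of 0.33, against 54.2%. In the cluster led by Vcam1 and Ccl12 (274 KO cells and 168 WT cells) 21 of 32 were higher with a median of 0.14, against 55.9%, and its cells were deeper in KO, at a median of 19965 UMIs, than in WT, at 13846 UMIs. In the small cluster led by Ccl12 and Cd63 (140 KO cells and 110 WT cells) 15 of 24 were higher with a median of 0.13, against 56.5%, which is near its background. Leaving out the Nrg1 cluster brought the median over the class to 0.16, against 0.077 over all genes. Leaving out any other cluster kept the class median between 0.28 and 0.30, against 0.026 to 0.058 over all genes. The median of the listed genes minus that of all genes was 0.088 without the Nrg1 cluster and 0.21 with every cluster.

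**Figure D4:**
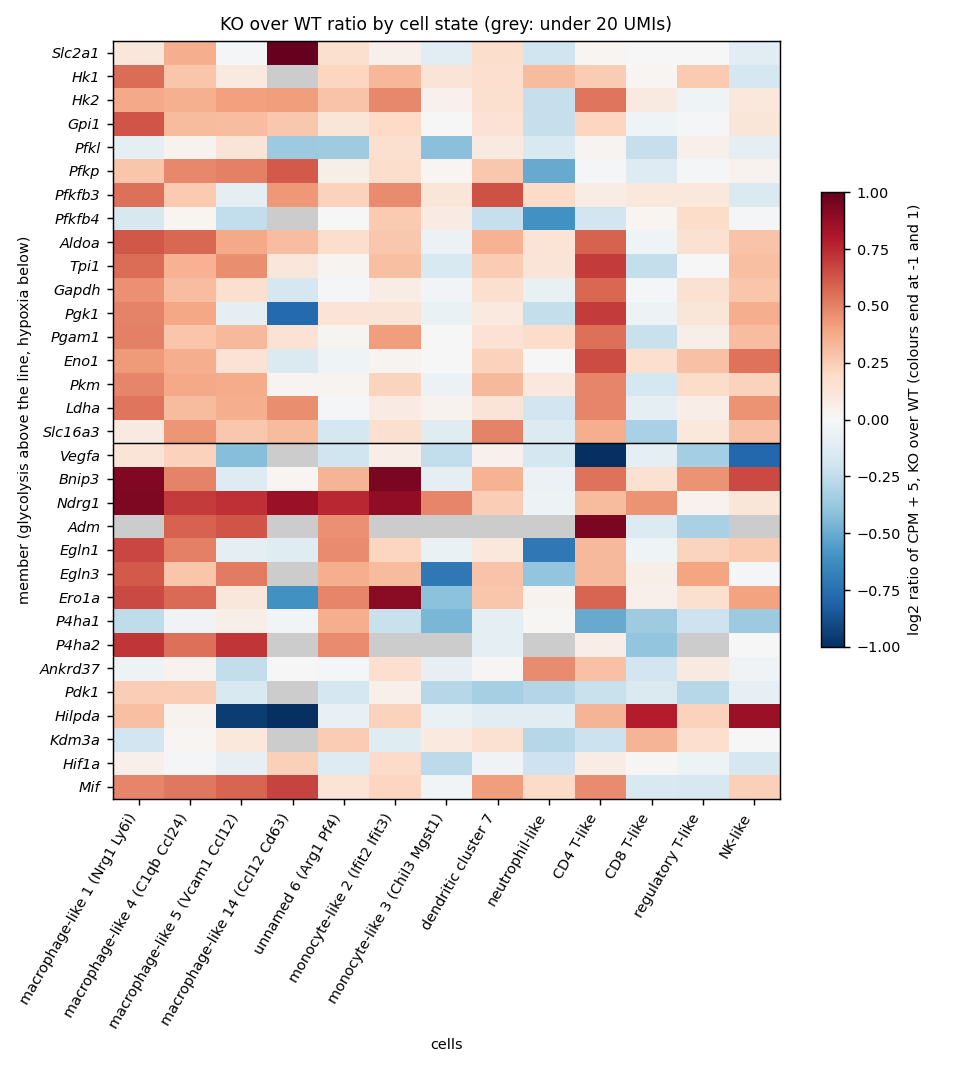
Log2 ratio (KO over WT) of CPM + 5 for each gene in each cell state or class, with colours ending at -1 and 1 and grey for under 20 UMIs. Ratios are mostly above 0 in the clusters led by Nrg1 and by C1qb, and Hilpda turns from above 0 in the Nrg1 cluster to below 0 in the Vcam1 cluster.

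The direction for Hilpda varied by state. It was higher in KO in the Nrg1 cluster, at 592 CPM in KO and 479 CPM in WT, overlapped in the C1qb cluster, at 586 CPM in KO and 571 CPM in WT, and was lower in the Vcam1 cluster, at 138 CPM in KO and 271 CPM in WT. Without the Vcam1 cluster its ratio over the class turned from -0.24 to 0.09, and with the cluster make-up of WT applied to both genotypes it was 0.05. Slc2a1 also turned, from 0.11 to -0.06 without the C1qb cluster and to -0.01 with looser cell filters. Ndrg1 did not: its ratio lay between 0.49 and 0.93 in all 7 macrophage and monocyte clusters, with separate intervals in 6.

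Monocyte-like cells and an unnamed macrophage cluster were read in the same way. The cluster led by Arg1, Pf4 and F13a1 (609 KO cells and 450 WT cells) kept no cell type name because its top genes held more monocyte than macrophage markers. In it 21 of 32 genes were higher, against 57.1%, with a median of 0.13, and the clearest ratios were again hypoxia genes, with Ndrg1 at 402 CPM in KO and 236 CPM in WT and Ero1a at 325 CPM in KO and 230 CPM in WT. The interferon-gene monocyte-like cluster led by Ifit2 had 28 of 30 genes higher, against 56%, with a median of 0.21. The Chil3 monocyte-like cluster had 9 of 30 higher, against 47.1%, with a median of -0.06 and the KO interval below for 5 genes, namely Vegfa, Egln3, Ero1a, P4ha1 and Hif1a, against 5.48% of all its genes, while Ndrg1 alone was above, against 6.18%. Whether clusters differ from each other in these ratios was not tested.

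Baseline levels also differed between the states. Among the 7 macrophage and monocyte clusters, pooled over genotypes, 13 of the 32 genes were highest in the Arg1 cluster, 11 in the cluster led by Ccl12 and Cd63, 7 in the Nrg1 cluster and 1 in the Vcam1 cluster. The Arg1 cluster held the top levels of Hilpda at 1512 CPM, Vegfa at 666 CPM, Ndrg1 at 333 CPM and Ero1a at 286 CPM. The Ccl12 and Cd63 cluster held the top levels of Gapdh, Aldoa, Ldha and Mif. It was the shallowest of the 7 clusters, at a median of 2921 UMIs in KO and 2221 in WT. Its Gapdh interval, 3087 to 3343 CPM, lay above that of the Arg1 cluster, 2133 to 2204 CPM. Other top levels there rest on few UMIs, such as Adm with 8 UMIs (interval 4.53 to 20.7 CPM). Its Pfkl interval, 43.0 to 78.9 CPM, overlapped that of the Arg1 cluster, 46.3 to 57.3 CPM. Neutrophil-like cells had higher levels of several hypoxia genes than any macrophage cluster, with Ero1a at 424 CPM, Egln3 at 239 CPM and the lactate exporter Slc16a3 at 445 CPM. These are levels in CPM and each compares 1 gene between clusters.

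**Figure D5:**
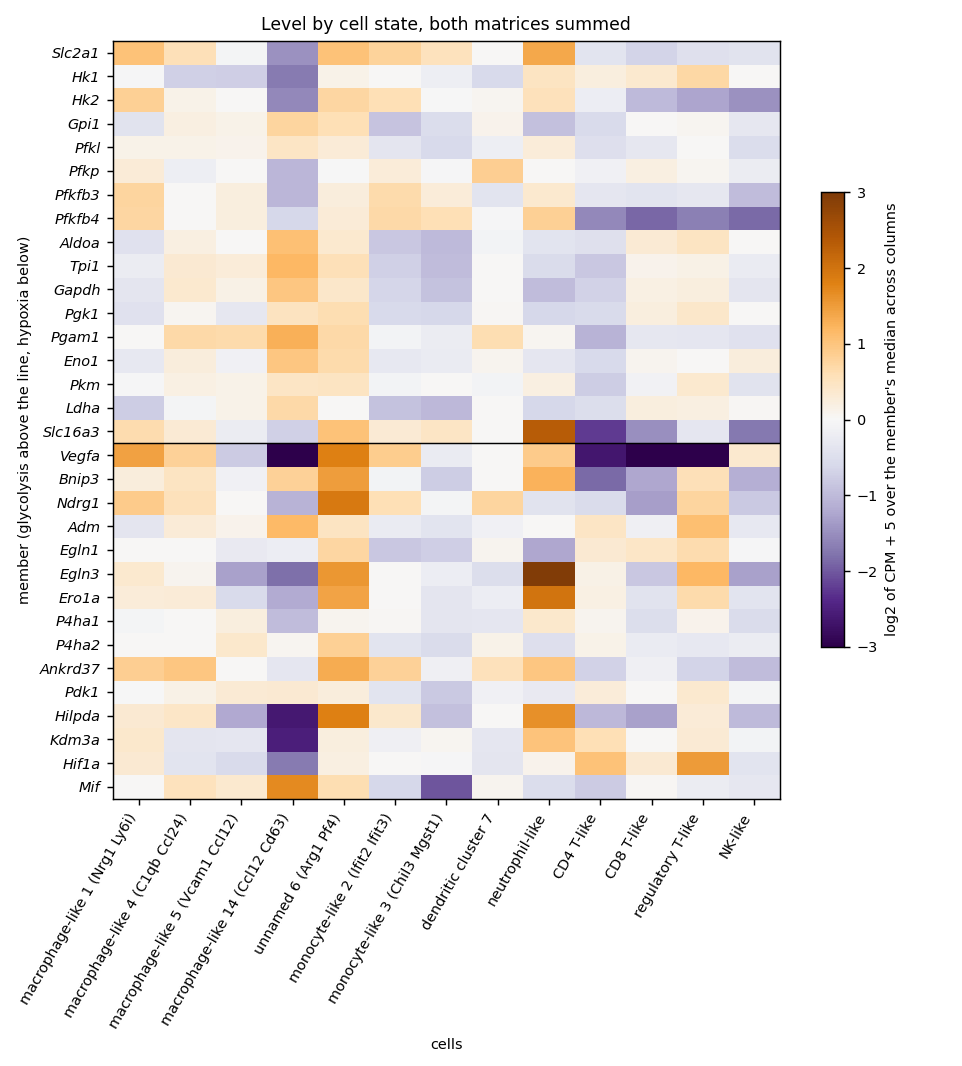
Level of each gene in each cell state or class, both matrices summed, as log2 of CPM + 5 relative to the gene's median over the columns. The Arg1 cluster and neutrophil-like cells hold the highest levels of Hilpda, at 1512 and 1328 CPM.

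Neutrophil-like cells, in which Lyz2-cre is also active, were read next, and their share of higher genes was near that of all genes. In 751 KO cells and 606 WT cells, 11 of 30 measured genes were higher in KO, against 42% of all genes, with a median of -0.13, against -0.08 over all genes. The KO interval lay below for 5, namely Pfkp, Pfkfb4, Egln3, Hilpda and Hif1a, against 8.85% of all genes, and above for none, against 6.64%. Pfkp had 172 CPM in KO and 245 CPM in WT. The difference between neutrophil-like and macrophage-like cells was not tested.

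Among lymphocytes, in which the Lyz2 promoter is mostly silent, CD4 T-like, NK-like and regulatory T-like cells also had most listed genes higher in KO. In CD4 T-like cells 26 of 32 genes were higher in KO, against 47.7% of all genes. Their median log2 ratio was 0.32, against -0.01 over all genes. In NK-like cells 20 of 31 were higher, against 43.7%, with a median of 0.12, against -0.03. In regulatory T-like cells 22 of 31 were higher, against 42.4%, with a median of 0.09, against -0.04. In CD8 T-like cells 13 of 32 were higher, against 44%, which is near that share. Their median was -0.04, against -0.03 over all genes. The KO interval there lay above for 4, against 9.69% of all genes, and below for 9, against 14.9%. Hilpda was higher in KO in CD8 T-like cells, at 209 CPM in KO (interval 202 to 217) and 119 CPM in WT (interval 113 to 126), and in NK-like cells, at 280 CPM in KO and 153 CPM in WT. Vegfa was lower in KO in NK-like cells, at 170 CPM in KO and 297 CPM in WT, and in CD4 T-like cells, with a log2 ratio of -1.21. The highest level of Hif1a, 1153 CPM, was in regulatory T-like cells and not in a macrophage cluster. In the dendritic cluster led by Plet1 and Ccl17, 25 of 31 genes were higher, against 50.3%, with a median of 0.16. In B-like cells, with 41 KO cells and 31 WT cells, 19 of 19 measured genes were higher, against 71.6%. Macrophage genes moved with them in these B-like cells, with C1qa at 494 CPM in KO and 41.5 CPM in WT and Cd68 at 124 CPM in KO and 17.8 CPM in WT, both picked out after their values were seen, and their part in the ratios was not tested. Over all cells kept 26 of 32 genes were higher in KO, against 49.9%, with a median of 0.16. With 1 matrix per genotype, a difference between the 2 libraries and a difference between the genotypes cannot be told apart.

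Binding lists of EGR2 touched few of these genes. The authors' CUT&Tag peak lists, 1 per genotype with replicates pooled, held 4995 peaks in KO and 5408 in WT on mm10. Within 10 kb of the gene start, 5 of the 32 genes had a peak in the KO list (15.6%, against 6.73% of tested genes), and 6 had one in the WT list (18.8%, against 8.13%). The KO list named Aldoa, Egln1, Ndrg1, Slc16a3 and Tpi1, and the WT list Aldoa, Hilpda, Hk1, Pkm, Tpi1 and Vegfa. None of these peaks overlapped a peak of the other list. Over all peaks an overlap of at least 1 base was uncommon, at 12.3% of the KO list and 11.4% of the WT list. The highest placed was a WT peak in the body of Pkm at chr9:59658137-59658637, ranked 123 of 5408 by the authors' score, near a gene with no bulk call. Hilpda had a WT peak at chr6:29265352-29265852, -6886 bp from its start and ranked 678, and Ndrg1 a KO peak at -3303 bp, ranked 1766 of 4995. No member's promoter window overlapped an EGR2 peak. A ranking within lists of different length shows no change between genotypes. With few peaks per gene the count was sensitive to distance, at 2 genes within 2 kb and 18 within 50 kb in either list, against 9 within 10 kb. Within 2 kb the KO list had a peak for 3.1% of the 32 genes, against 1.28% of tested genes, and the WT list for 6.25%, against 1.75%. Within 50 kb these shares were 31.25%, against 25.6%, in the KO list and 43.75%, against 29.0%, in the WT list. The ATAC-seq regions of open chromatin, deposited as 1 merged list with names that carry a genotype, came within 10 kb of 16 of the 32 genes (50%), against 34.5% of tested genes.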

How the data were processed

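Bulk RNA, single cell RNA, EGR2 CUT&Tag and ATAC-seq files of tumour macrophages and immune cells were used. The authors made the bulk counts with featureCounts 2.0.6 on GENCODE vM10, per the file headers, without using strand; reads with several placements add nothing to a gene. The single cell counts are deposited UMI counts, and the submitters' processing notes name Cell Ranger 8.0.1 and mm10. The score of each peak is the authors', per the deposited peak lists; the replicates are pooled in them.

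Bulk counts were tested with edgeR 4.0.16 in R 4.3.3 (TMM scaling, filterByExpr, quasi-likelihood test, Benjamini-Hochberg over 12939 genes, threshold 0.05), with DESeq2 1.42.0 as an alternative; the steps were tested on simulated data. Single cells needed at least 500 genes, 1000 UMIs and at most 10% mitochondrial UMIs. Scrublet doublets were removed (372 in KO and 542 in WT). Joint clustering of KO and WT cells used scanpy 1.11.5 and Leiden at resolution 1. UMIs were summed per cluster and genotype. The depth of each sum sets its interval. The genes and lists were chosen with earlier results of these data known. Named genes are the 32 genes, Ogt, Lyz2 and Egr2, up to 4 called genes per pathway list by adjusted p and up to 3 markers per cell type by level. Further markers named in the text were picked outside this rule. Histone mark samples were not used here.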

Additional observations from a re-analysis of the deposited data

Results flagged for a closer look

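In 14 genes that were called lower in bulk, with every KO library below every WT library, the single cell macrophage-like level in KO had its counting interval above that in WT. The listed genes were chosen with these opposite directions already known, so the count is no independent result. Of all 2194 genes called lower in bulk and measured in macrophage-like cells, 14.6% had the KO interval above. The difference between the assays was not tested, since the single cells have 1 matrix per genotype. The single cell log2 ratios (KO over WT) were 0.11 for Slc2a1, 0.31 for Gpi1, 0.42 for Aldoa, 0.35 for Tpi1, 0.19 for Gapdh, 0.15 for Pgk1, 0.27 for Pgam1, 0.19 for Eno1, 0.36 for Ldha, 0.18 for Slc16a3, 0.34 for Bnip3, 0.66 for Ndrg1, 0.34 for Egln1 and 0.33 for Ero1a. The bulk log2 fold changes of the same genes lay between -0.69 for Ero1a and -0.12 for Pgam1.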

How the results depend on the processing

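Over 12 alternatives in bulk (other scaling, no filter on low counts, DESeq2, a replicate block, counts divided into read pairs and each library left out), 18 of the 22 called genes kept their call and direction. Listed genes called lower numbered 18 to 20 in all 12, and those called higher 1 to 3 when single libraries were left out. All called genes numbered 3991 without the first KO library, against 4874. With a replicate block 4691 genes were called, 20 listed genes fell and 2 rose. The deviations of same-numbered libraries correlated at only -0.0048, 0.0019 and 0.0112. These libraries thus shared no visible deviation, which cannot show whether the samples were collected or prepared in pairs. Only genes with no call changed sign. P4ha1 was 0.0011 with RLE scaling, 0.0101 with upper-quartile scaling, 0.0104 with no filter and 0.0013 with DESeq2. Pfkp was 0.0049 with upper-quartile scaling and 0.0046 with no filter. With libraries left out, P4ha1 ranged from -0.0395 to 0.0314, Pfkp from -0.0369 to 0.0246, Kdm3a from -0.0276 to 0.103, Hif1a from -0.0057 to 0.0634 and Pkm from -0.0036 to 0.0197. Pfkfb4 had an adjusted p of 0.0573 with no filter. In single cells the median ratio lay between 0.16 and 0.35 and the number of genes above 0 between 23 and 29 over 15 alternatives. The macrophage-like clusters were left out in turn as a choice made after seeing the data. Without the Nrg1 cluster the median was 0.1645, against 0.0768 over all genes. Slc2a1 was -0.0083 with looser cell filters and -0.0578 without the C1qb cluster, and Hilpda was 0.0538 with the WT cluster make-up and 0.094 without the Vcam1 cluster. Genes with an EGR2 peak numbered 2 within 2 kb and 18 within 50 kb, against 9 within 10 kb. The share of all tested genes with a peak also grew from 2 kb to 50 kb, from 1.28% to 25.6% in the KO list and from 1.75% to 29.0% in the WT list. The cause of these shifts was not tested. The single cell data are limited to 1 matrix per genotype.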
